A study of Caenorhabditis elegans with 2 samples.

Results

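The gene hlh-8 encodes HLH-8, the Caenorhabditis elegans Twist factor, and these data give the peaks called along that gene after immunoprecipitation of tagged HLH-8. Every peak entry with a summit in hlh-8 or within 10 kb of it was taken from the deposited lists, which gave 50 entries over 8 lists, 26 on the genome build ce11 and 24 on ce10. On ce11 these were 3 of the 1120 optimal peaks, 4 of the 25904 pooled candidates, 8 of the 24268 candidates of replicate 1 and 11 of the 23945 candidates of replicate 2. They concern 1 of 19973 nuclear protein-coding genes.

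The assay was chromatin immunoprecipitation sequencing with an antibody against GFP. There was 1 group of 2 biological replicates, made up of whole hermaphrodite late embryos of strain OP63, 3.5 hours after synchronization by egg bleaching. Both replicates carry a transgene for HLH-8 with a GFP-FLAG tag at its C terminus, and the promoter that drives it, its copy number and the state of the untagged gene are not stated in the labels. Candidates were deposited for each replicate and for their pooled reads, and the optimal list holds the pooled candidates kept by a test of reproducibility between replicates. Signal is the authors' value per peak in arbitrary units, and read depth is unknown. Neither worms without the tag nor the libraries named as controls were analysed here. Extra copies of hlh-8 DNA brought by the transgene and binding of HLH-8 to its own gene therefore cannot be told apart at this locus. The samples are whole embryos, so a strong signal in few cells and a weak signal in many cannot be told apart either.

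HLH-8 is a basic helix-loop-helix protein that pairs with HLH-2, the worm E protein, and such dimers contact the 6-base E-box, written CANNTG. It acts in the postembryonic M lineage, which gives rise to the sex muscles, and in the enteric muscles, which are born in the embryo. Work on this gene places early expression in the M lineage under an upstream promoter that Hox factors and CEH-20 act on, and later expression in muscle under elements within an intron, through which HLH-8 is known to act on its own gene.

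In ce11 hlh-8 (WBGene00001953) spans 8116457 to 8120351 on chromosome X, 3895 bp on the plus strand. Its transcript of 6 exons opens with exon 1, at 8116457 to 8116551, which is entirely 5′ UTR. Intron 1 is 86 bp long, the start codon lies at 8116638 to 8116640 in exon 2, and intron 2 runs from 8116740 to 8118758, 2019 bp. The other transcript has 5 exons and begins at 8116635, inside intron 1 of the longer form, and the long intron is its intron 1. Intron numbers below are those of the 6-exon transcript, and distances are from base 8116457.

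The E-boxes next to the summits are shown first. Both pooled summits at the start of the gene had 2 within 50 bp, and the strongest summit had none that near. At least 2 lay that near 16.25% of all optimal summits. Each line is the ce11 plus strand of the RefSeq sequence, 5′ to 3′, with the E-box in capitals. The first pair flanks the 5′ UTR summit, the third contains the start codon as its last 3 letters, and the fourth holds the summit of replicate 2 at the start of intron 2. The last pair are the E-boxes nearest to the strongest summit.
CATATG in the 5′ UTR, chrX:8116498-8116527: tcctctgttacgCATATGtttggatctcat
CATATG in intron 1, chrX:8116578-8116607: tgtgttacttttCATATGtttattacttga
CAGATG at the start codon, chrX:8116623-8116652: atatgattttcaCAGATGgtggctcgtaga
CAATTG at the start of intron 2, chrX:8116741-8116770: taaatgttcattCAATTGtttttgagagtt
CATCTG upstream of the strongest summit, chrX:8117880-8117909: tttatggctcatCATCTGgcatgctcgcta
CATCTG downstream of the strongest summit, chrX:8118084-8118113: gaatcctgagaaCATCTGgagacaatttca
The strongest summit itself is the capital in the next line, and no CANNTG lies in these 30 bases.
Intron 2 summit, chrX:8118012-8118041: acggtagaggaagatGcaagacgcgagatg

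All 4 pooled candidates within 10 kb lay inside hlh-8, and 3 of them were optimal, against 4.32% of all pooled candidates. The 2 optimal summits in intron 2 shared the interval 8117832 to 8118235, so the 3 optimal entries are not independent. The 4 candidates fell into a pair at the start of the gene and a pair in the middle of intron 2. No pooled summit lay upstream of the 5′ end within 10 kb, so the promoter proper held no candidate of its own, although the 444 bp interval around the 5′ UTR summit, 8116325 to 8116768, reaches into it. Each of the 4 had a summit within 200 bp in both replicates, as had 32.8% of all pooled candidates. For the 3 optimal peaks the reproducibility test nearly fixes this, since 1117 of the 1120 optimal peaks were so matched.

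**Figure D1:**
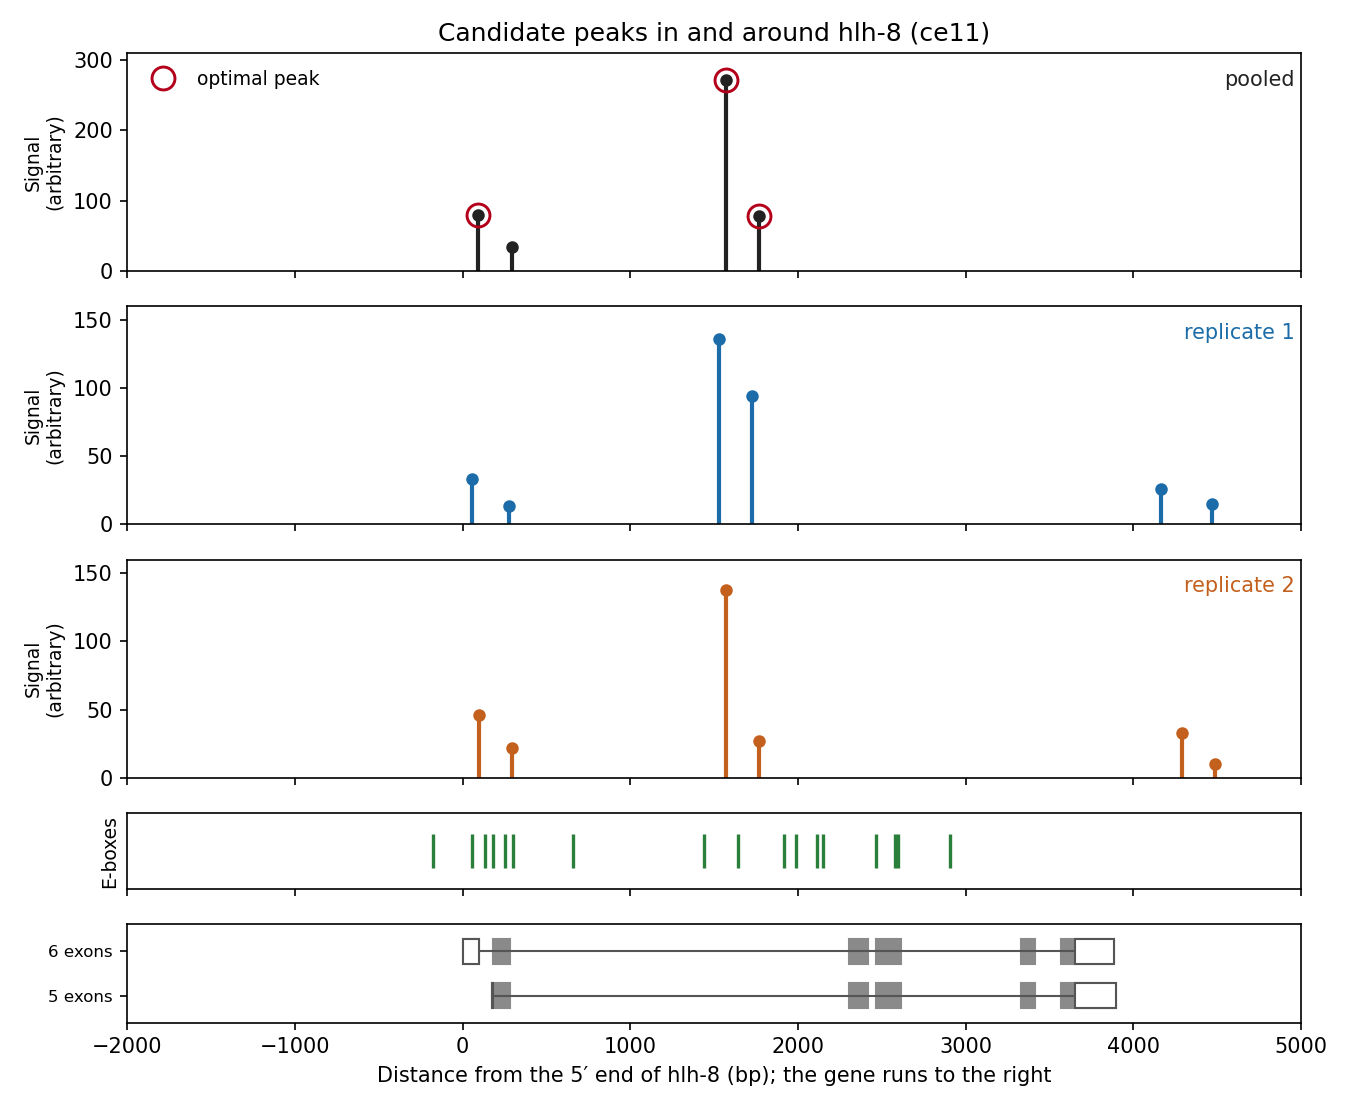
Signal of each candidate (vertical axis, arbitrary units) at its summit, in bp from the 5′ end of hlh-8, in the pooled list (top), replicate 1 and replicate 2; red circles mark optimal peaks, green ticks the E-boxes, and boxes the exons of both transcripts, with untranslated parts in white. The pooled candidates stand at 90, 293, 1570 and 1770 bp, and the replicates also have candidates just past the 3′ end that the pooled list lacks.

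The strongest peak of the gene lay in intron 2, at 8117832 to 8118235, with its summit at 8118027, 1570 bp from the 5′ end and 1287 bp into the intron. Its signal was 135.9 in replicate 1 and 137.6 in replicate 2, a mean of 136.7 ± 1.24 (SD, n = 2), and 271.8 in the pooled list. The replicates gave nearly the same value, with a log2 ratio of replicate 2 to replicate 1 of 0.02, against a median of 0.19 and an SD of 0.55 over the 1117 optimal peaks matched in both. Its rank was 19 among pooled candidates, with ranks of 18 and 27 in replicates 1 and 2. Peaks on mitochondrial DNA were among those ranked above it, and they also count in the shares and medians over all optimal peaks. Among optimal peaks the intron 2 peak was the strongest of the 230 on chromosome X, whose median signal was 73.8. It was the third of the 177 optimal peaks in introns of protein-coding genes outside promoter windows, whose median was 80.4.

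This interval was shorter than usual, 404 bp against 444 bp, a width from which 26.3% of optimal intervals differed. It overlapped by 80 bp an annotated non-coding RNA on the opposite strand, C02B8.11 (8117765 to 8117911, 147 bp). The summit lay 116 bp upstream of the 5′ end of C02B8.11, which is read towards the start of hlh-8. ChIP-seq recovers double-stranded DNA, so the signal cannot be assigned to either gene.

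The other summit of the same interval, at 8118227 and 1770 bp from the 5′ end, had unlike signals in the replicates. The calls matched to it lay 41 bp apart, at 8118185 in replicate 1 and 8118226 in replicate 2. These were 158 bp and 199 bp past the strongest pooled summit. The signal was 94.1 in replicate 1 and 27.2 in replicate 2, a mean of 60.6 ± 47.4 (SD, n = 2). The pooled signal was 78.9 at rank 573. Replicate 1 was the higher, and the log2 ratio of replicate 2 to replicate 1 was −1.79. Of the 1117 matched optimal peaks, 0.269% had a ratio that low or lower, and 0.806% lay as far from the median in either direction. The pooled signal was 0.650 of the replicates' sum, a ratio reached or undercut by 0.358% of matched optimal peaks, whereas the median was 1.00. At the strongest summit the same ratio was 0.994.

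The 2 intron summits stood 200 bp apart in the pooled list, and 199 bp was the smallest spacing between neighbouring summits in all 8 lists. Spacings under 210 bp made up 5.65% of those in the ce11 pooled list, 1464 in all. At hlh-8 the pairs inside the gene were 199 to 221 bp apart in every list that held one, so the 4 pooled candidates are described here as 2 sites, each with a further call near the shortest distance the lists allow. On ce10 neither the pooled nor the optimal list held the further call in intron 2, while both replicates did.

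**Figure D2:**
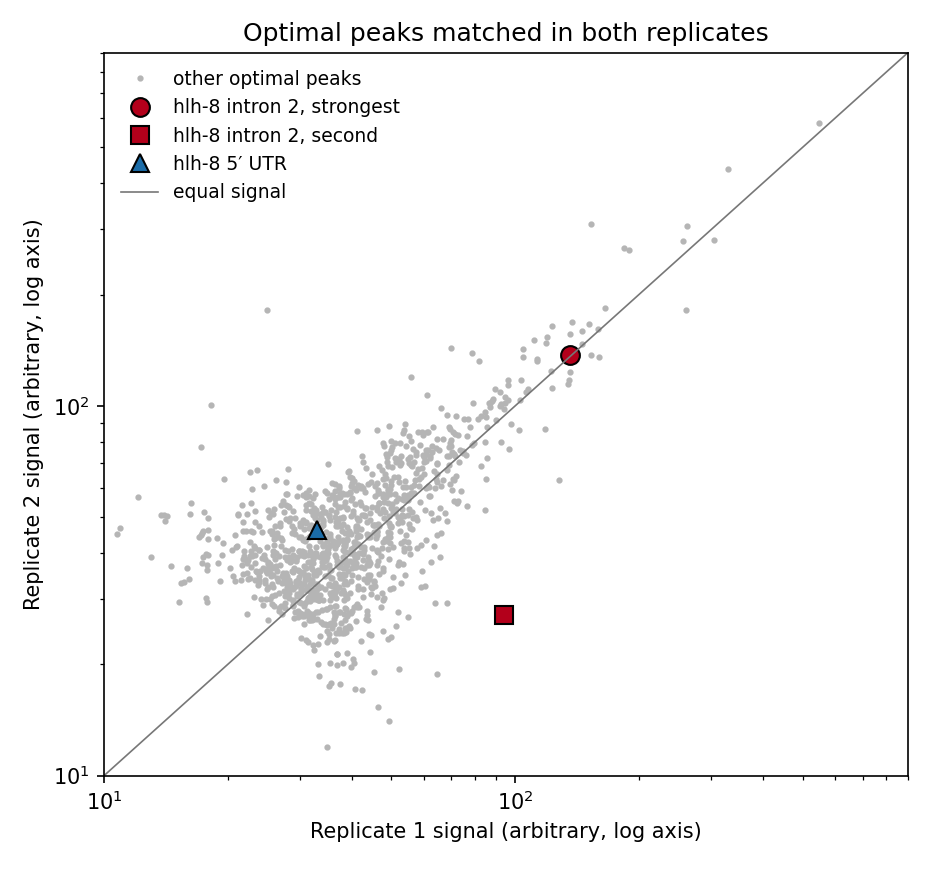
Signal in replicate 2 against replicate 1 (both in arbitrary units, log axes) for the 1117 optimal peaks matched in both replicates, with the hlh-8 summits as large symbols and a line of equal signal. The strongest intron 2 summit lies on the line at 135.9 and 137.6, the 5′ UTR summit within the cloud, and the other intron 2 summit, at 94.1 in replicate 1 and 27.2 in replicate 2, farther below the line than nearly all others.

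The site at the start of the gene had its pooled summit at 8116547, 90 bp from the 5′ end and 4 bp before the end of exon 1. Its signal was 33.0 in replicate 1 and 46.0 in replicate 2, a mean of 39.5 ± 9.23 (SD, n = 2), and 79.3 in the pooled list at rank 566. This was an ordinary optimal peak, next to a median of 79.6 over all 1120, and it ranked 274 among the 515 optimal peaks in promoter windows (up to 500 bp before and 200 bp after a protein-coding 5′ end). The summit was at 8116512 in replicate 1, in the 5′ UTR, and at 8116554 in replicate 2, just inside intron 1. Those summits were 42 bp apart, as were the replicates' summits at the strongest intron 2 peak, against a median of 29 bp over matched optimal peaks.

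The companion call at 8116750, 293 bp from the 5′ end and at the start of intron 2, was not optimal. Its signal was 13.4 in replicate 1 and 21.9 in replicate 2, a mean of 17.7 ± 5.99 (SD, n = 2), and 34.3 in the pooled list at rank 2857. Replicate 1 placed its summit in exon 2, at 8116733, and replicate 2 in intron 2, at 8116753. Its deposited −log10 q in the pooled list was 2.27, whereas the 3 optimal peaks of the gene all stood at the ceiling of that list, 3.57. The log2 ratios of replicate 2 to replicate 1 were 0.48 at the 5′ UTR summit and 0.71 at this call, both within the 5th to 95th percentile of matched optimal peaks, −0.65 to 1.05.

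Set side by side, the strongest intron 2 peak was above the 5′ UTR peak in both replicates, 135.9 against 33.0 in replicate 1 and 137.6 against 46.0 in replicate 2. With 2 replicates of 1 group no test of that difference was made.

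On the earlier build, signals at 3 of the 4 calls were nearly the same. The gene was located on ce10 as the single pair of pooled candidates like the 5′ UTR and strongest intron 2 summits. Spacing had to agree within 20 bp and each signal within 5%, and the pair was 1486 bp apart on ce10 and 1480 bp on ce11. Agreement of those 2 pooled signals was therefore set by the search. The call at the start of intron 2 and the replicates' signals were not used in it. Pooled signals on ce10 were 78.9 at the 5′ UTR, 33.6 at the start of intron 2 and 273 at the strongest intron 2 summit, with ranks 563, 2950 and 19.

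The call that moved was again the further summit of intron 2. On ce10 its signal was 36.4 in replicate 1 and 16.8 in replicate 2, against 94.1 and 27.2 on ce11. In replicate 1 the strongest summit itself had shifted, lying 1 bp from the pooled summit on ce10 and 42 bp before it on ce11, with signals of 132.1 and 135.9.

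**Figure D3:**
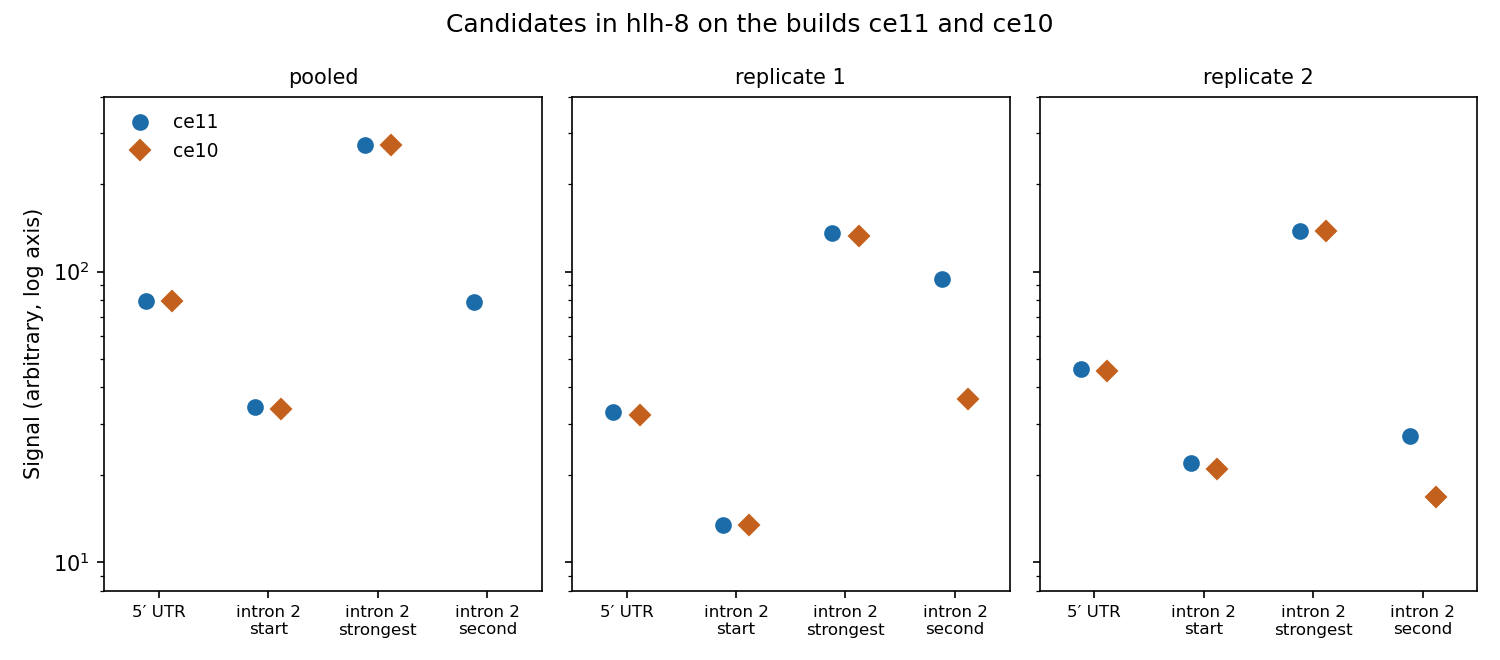
Signal (arbitrary units, log axis) of each candidate inside hlh-8 on ce11 (circles) and ce10 (diamonds), for the pooled list, replicate 1 and replicate 2. The symbols coincide at the 5′ UTR, the start of intron 2 and the strongest intron 2 summit, and part at the further intron 2 summit, which ce10 lacks in the pooled list. In the pooled list the 5′ UTR and strongest intron 2 signals were matched within 5% when the gene was located on ce10.

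E-boxes were dense where the gene starts. Within the first 300 bp of hlh-8, 5 E-boxes began, or 16.7 per kb, against 4.29 per kb over chromosome X, and this window, which ends inside the last of them, was chosen after the positions were seen. The whole gene held 16, or 4.11 per kb, 8 of them in intron 2, while the 2 kb upstream held 1. Within 250 bp of the 5′ UTR summit there were 5 E-boxes, a number reached by 10.4% of optimal summits, whose median was 2. The strongest intron 2 summit had 2 within 250 bp, the same as that median.

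The 5′ UTR summit had the class CATATG on both sides, starting 53 bp and 133 bp from the 5′ end, 80 bp apart. The replicate 1 summit fell inside the first of these. Of optimal summits, 16.25% had 2 or more E-boxes of any class within 50 bp. A CATATG within 50 bp occurred at 4.02% of optimal summits and a pair of them at 0.268%, which is 3 summits including this one. The others were a summit 1855 bp from the 5′ end of goa-1, with a signal of 94.5, and a summit 3843 bp from that of frl-1, with a signal of 66.2, both named after their values were seen.

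At the start of intron 2 the summit had a CAATTG 3 bp away, and the summit of replicate 2 fell inside it. A CATGTG in exon 2 lay 40 bp to its other side. Within 50 bp, CAATTG occurred at 3.39% of optimal summits and the class of CATGTG, which reads CACATG on the opposite strand, at 11.3%.

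Neither the strongest intron 2 summit nor the further summit had an E-box of any class within 50 bp, whereas 48.5% of optimal summits had at least 1. Their nearest E-boxes were 69 bp and 126 bp away, against a median of 48.5 bp for optimal summits. Of optimal summits, 59.0% and 71.6% had one at those distances or nearer, so the strongest summit was not far from the middle. The nearest on either side of the strongest summit were both CATCTG, which reads CAGATG on the opposite strand, at 69 bp and 130 bp, and the one upstream lies inside C02B8.11. The class CAGATG occurred within 50 bp of 14.3% of optimal summits, within 100 bp of 20.2% and within 250 bp of 31.0%. At 7.77% there were 2 or more within 250 bp, as at the strongest summit.

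GC content within 50 bp was 30.7% at the 5′ UTR summit, 37.6% at the start of intron 2, 47.5% at the strongest summit and 36.6% at the further summit, against a mean of 48.0% ± 8.35 (SD over the 1120 optimal summits). The strongest summit was near that mean and the 5′ UTR summit the farthest below it.

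Other words looked for on both strands were TGATNNAT, the pattern of joint Hox and PBC sites, and GAGAGA. Neither occurred within 50 bp of any of the 4 summits, where 3.48% and 25.6% of optimal summits held them. TGATNNAT began at −1519 and −1417 bp from the 5′ end and, as an overlapping pair, at 3749 and 3751 bp in exon 6, which over the gene and 2 kb upstream makes 0.679 per kb against 0.936 per kb on chromosome X. No candidate of any ce11 list had its summit between 2 kb upstream and the 5′ end. GAGAGA began at −17 bp and its reverse complement at 350 bp.

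Around the gene the pooled list was empty over a long stretch, although both replicates called sites there. Between the pooled summits at 8104274 and 8137611, 33337 bp, every pooled candidate lay inside hlh-8, leaving 12183 bp to its left and 17260 bp to its right with none. In the same stretch outside the gene, replicate 1 had 6 candidates with a highest signal of 33.8, and replicate 2 had 9 with a highest signal of 37.0, leaving out 2 beside the bounding pooled summits.

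Sites at 3 places were called in both replicates. The first lay between genes, 390 to 589 bp upstream of K07E3.1, with 33.8 and 28.3 in replicate 1 (summits 8109850 and 8110049) and 28.9 in replicate 2 (8110005). The next lay in C02B8.12, whose 3′ end overlaps that of hlh-8 on the opposite strand, with 25.7 and 15.1 in replicate 1 (8120625 and 8120925) and 32.6 and 10.3 in replicate 2 (8120747 and 8120947). The last lay in C02B8.6, 14020 bp past the end of hlh-8 and so beyond the 10 kb window, with 28.4 in replicate 1 (8134371) and 37.0 in replicate 2 (8134402).

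At each of these places the strongest calls of both replicates summed to at least 57.4, the lowest signal of the optimal list. Over the genome 1159 sites of replicate 1 were shared with replicate 2 within 200 bp and reached that sum. Of these, 4 had no pooled candidate within 500 bp, 0.345%. Within 20 kb of hlh-8 they were 3 of 6 shared sites, and elsewhere 1 of 1153. The other 3 shared sites near hlh-8 have their summits in the gene, where pooled signals were 0.650 to 1.00 of the replicates' sums. This comparison was set up after the values were seen. Alternatives for its settings gave 2 to 4 such sites near hlh-8 and 1 to 6 elsewhere. The count elsewhere was 6 with a summed signal of at least 40, where 4 lay near hlh-8, and 5 with a pooled summit required within 200 bp, where 3 did. Why the pooled list lacks them was not tested.

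**Figure D4:**
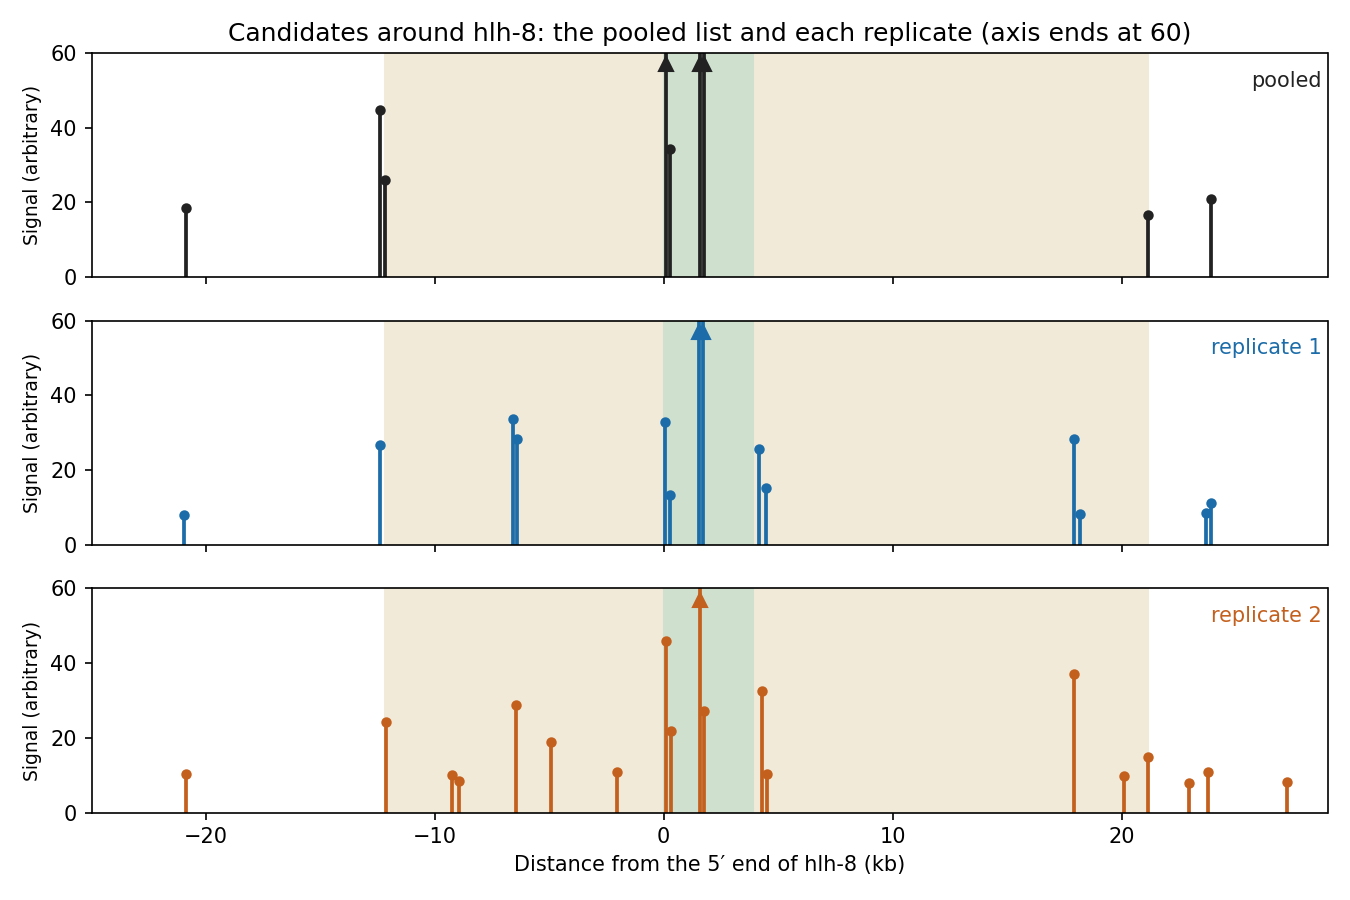
Signal of candidates (arbitrary units, axis ending at 60, triangles for higher values) against distance from the 5′ end of hlh-8 in kb, for the pooled list, replicate 1 and replicate 2; the gene is shaded green and the stretch between the bounding pooled summits beige. The replicates have shared candidates beside K07E3.1, C02B8.12 and C02B8.6 (−6607, 4168 and 17914 bp in replicate 1), where the pooled list has none.

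Neighbouring genes within 10 kb held no pooled or optimal summit in their bodies. These were K07E3.2, K07E3.9 and K07E3.1 upstream, C02B8.11 within intron 2, C02B8.12 at the 3′ end, and frpr-1 downstream, which encodes a predicted FMRFamide peptide receptor. Replicate 1 had 2 candidates in C02B8.12 and none in the rest. Replicate 2 had 2 in C02B8.12, 3 in K07E3.2 and 2 in K07E3.1, and those in K07E3.1, with signals of 18.9 and 10.7, were not shared with replicate 1.

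Summed over the gene and 5 kb to either side, pooled signal was 464.4 at hlh-8 against a median of 61.8 over the 2731 genes of chromosome X, a ratio of 7.52 at percentile 99.96. Replicate 1 gave a ratio of 8.66 and replicate 2 of 8.33. Within 10 kb the pooled sum at hlh-8 was the same, with no further pooled candidate there, while the median over those genes was 120.6. The pooled ratio was then 3.85, at percentile 99.30, against 5.43 in replicate 1 and 4.95 in replicate 2. The pooled list thus gave the lowest ratio in both windows, and the replicates' calls beside the gene are part of their sums.

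An optimal peak at the promoter together with another in an intron was found at 9 nuclear protein-coding genes. They had at least 1 optimal summit in a promoter window and at least 1 in an intron outside it. Of these, hlh-8 had the highest summed signal, 430.0, and the highest single peak. Without the further intron 2 summit its sum was 351. The nearest in summed signal were dip-2 with 331 over 3 peaks, ccch-1 with 255, ints-8 with 232, madf-11 with 192 and W09B6.4 with 184. The log2 ratio of their sums to that of hlh-8 was −0.38 for dip-2 and −1.22 for W09B6.4, with the others between.

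**Figure D5:**
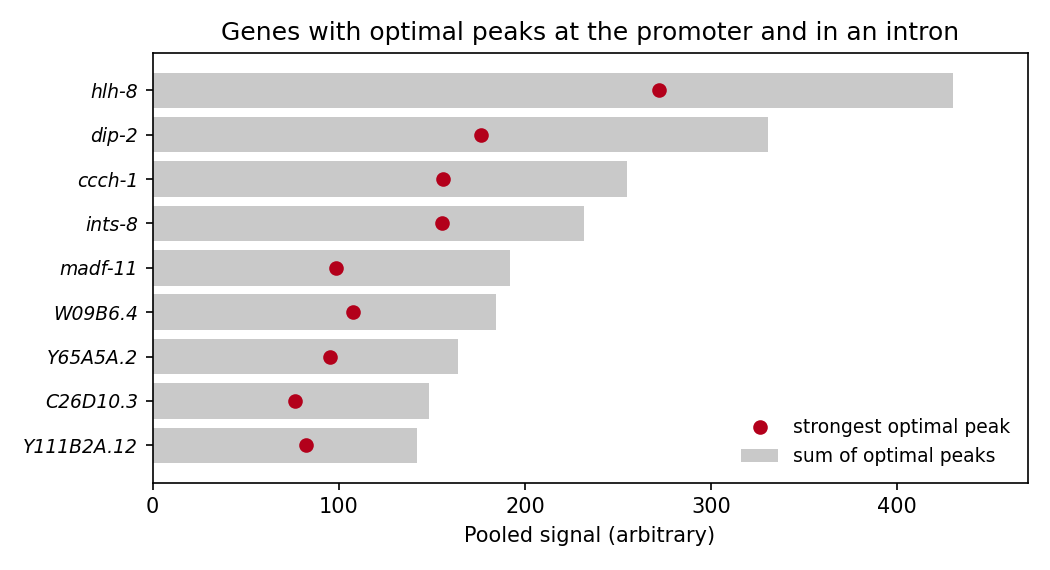
Summed pooled signal of optimal peaks (grey bars, arbitrary units) and signal of the strongest (red points) for the 9 genes with optimal summits at the promoter and in an intron. The bar of hlh-8, at 430.0, is the longest, and its strongest peak, at 271.8, is the highest point.

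A list of 12 genes held the partner of HLH-8, some of its targets, and M lineage regulators that include factors acting on hlh-8. Near a 5′ end here means up to 2000 bp before or 500 bp after that of any transcript. Of the 12 genes, 3 had an optimal summit there, against 5.77% of 19973 genes. They were ceh-20, the PBC partner of Hox factors, with a signal of 175.8 at rank 63, mls-1, a T-box factor of uterine muscle that HLH-8 acts on, with 81.0 at rank 526, and the Hox gene mab-5, with 57.4 at rank 1119, one place from the end of the list. The partner hlh-2 had a pooled candidate with a signal of 40.2 at rank 2154, and the Hox gene lin-39 one of 33.6 at rank 2972. Of the listed targets other than mls-1, arg-1, a Notch ligand gene, had a strongest pooled signal of 30.8 at rank 3494 of 25904. For egl-15, the FGF receptor gene, it was 25.3 at rank 5290, and for ceh-24, a homeobox gene of vulval muscle, 16.02 at rank 14942. Among the other M lineage regulators the strongest pooled signals were 38.6 for unc-62, a Meis-type cofactor, and 25.8 for sem-2, a SoxC factor, at ranks 2319 and 5086. For fozi-1, a zinc finger factor, it was 12.6 at rank 23295, and mls-2, a homeobox gene, had no pooled candidate. The pooled list holds background as well as peaks and its lowest signal was 11.8, so a weak candidate in it is not by itself a sign of binding. None of the 12 reached the 271.8 of the intron 2 peak of hlh-8.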

How the data were processed

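HLH-8 ChIP-seq peak lists of 2 biological replicates (1 group) were used as deposited. Per the deposited file inventories, candidates of each replicate and of the pooled reads hold peaks with background as input to an irreproducible discovery rate step, whose output is the optimal list. The aligner, the caller and any depth scaling were each not given in the sources used here. Signal (column 7) and −log10 q (column 9) are values deposited by the authors; column 10 gives the summit. Read depth is unknown, so no counting interval is given. Signals were compared within a list or at the same site.

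Annotation was Ensembl release 115 and sequence RefSeq, both ce11, with 1-based coordinates; no ce10 coordinate was converted. A replicate matched a pooled summit within 200 bp. E-boxes were searched within 50 bp on both strands. No significance test was made, because the series has 1 group. The matching and motif search were tested on simulated data. Named genes were hlh-8, all genes within 10 kb, a list of 12 partners, targets and regulators, and the 5 genes nearest in summed signal among those with promoter and intron optimal peaks. These members and lists were chosen with earlier results of these data known. Alternatives varied windows, matching distance, build and replicate. Calculations used Python 3.11.15, numpy 2.4.6 and pandas 2.3.3; plots used matplotlib 3.10.9.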

Additional observations from a re-analysis of the deposited data

How the results depend on the processing

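Of 43 alternative values, 33 kept within the spread between replicates or, for counts, within 1.5 times, and 10 moved. The 4 pooled candidates within 10 kb became 7 within 20 kb, and single replicates had 8 to 11. The 3 optimal peaks became 1 in the 560 strongest of the list. The intron 2 mean of 136.7 was 135.2 on ce10, which counts as moved only because the SD between its replicates was 1.24. The mean at the further intron 2 summit, 60.6, was 26.6 on ce10 and 27.2 to 94.1 in single replicates. These count among the values that kept, only because the SD between its replicates was 47.4. Summits with an E-box within 50 bp, 2 of 4, became 1 within 25 bp. The ratio of summed signal to the median over genes of chromosome X was 3.85 within 10 kb and 7.52 within 5 kb. Within 20 kb it was 2.26, at percentile 97.14, and single replicates gave 4.95 to 5.43 within 10 kb. The cause was not tested. The 5 alternatives for shared sites without a pooled candidate were chosen after seeing the data and gave 2 to 4 near hlh-8, against 3, and 1 to 6 elsewhere, against 1. A promoter summit gave no value, since no pooled summit lay upstream of the 5′ end. No paired analysis was possible because there is 1 group. Read depth is unknown, and the transgene limits every value at hlh-8.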
